A study of Homo sapiens with 4 samples.

Results

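The regions described here are the new MBD-seq peaks that lay entirely inside the first part of a gene, downstream of its start site and without touching it. They came from HEK293 cells, a human embryonic kidney line, in which a DNA methyltransferase had been expressed. Of the 12864 new peaks listed for the wild type enzyme, 2242 met the rule, and they belonged to 2194 genes. A peak was taken when its nearest start site was the canonical start of a protein-coding gene on chromosomes 1 to 22, when its nearest edge lay 1 to 1000 bp downstream of that site on the gene's strand, when it contained no canonical coding start site, and when no other gene's canonical coding start lay within 1000 bp of that site. Starts of other transcripts were not considered in the rule. Such an isolated start site was available for 16240 of 18978 coding genes, and 13.5% of them had a downstream-only peak. No threshold on height, width or sequence was set. The rule still bears on width, since a wide peak near a start site is more likely to cover it and be left out.

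The study compared 4 conditions with 1 library each. They were untreated HEK293 cells and cells carrying Ab-3A3L in the forms WT, K844E or R887E. Ab-3A3L is a single-chain antibody fragment joined to DNMT3A and DNMT3L, and K844E and R887E each change 1 residue of the DNMT3A part. All transfected cells also received dCS, a catalytically dead Cas9 with a SunTag array to which the antibody part binds, and an sgRNA for the CpG island of ISG15. The plasmids were introduced transiently, cells carrying them were sorted after 3 days, and methylated DNA was pulled down with GST-MBD2. Only the list of new peaks of the WT cells relative to the untreated cells was used, so that the enzyme, the transfection and the sort cannot be told apart in it, and no p-value is given. Intervals are 95% exact binomial intervals for shares and order-statistic intervals for medians. They cover counting error over peaks only, since all peaks share 1 pulldown.

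CpG islands are stretches rich in cytosine-guanine dinucleotides that carry the start sites of most broadly expressed genes. Islands at start sites are mostly free of methylation, while many other islands are methylated. Many islands extend past the start site into the first exon and the first intron. DNMT3A adds methyl groups to CpG sites without needing an already methylated strand, DNMT3L stimulates it, and MBD2 binds methylated CpG sites most strongly where they are dense. The deposited fold compares the fragments at the highest point of a peak, its summit, with the background chosen by the peak caller.

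The sequence around the summit is shown for the strongest downstream-only peaks whose summit window held no untranslated exon of any annotated transcript, because it displays the CpG contrast found at most members. Each downstream sequence gives 200 bp at the summit, and for CCNY and AGAP2 the upstream sequence gives the 200 bp at the same distance on the other side of the start site, all 5′ to 3′ on the coding strand in hg19, with every CpG in capitals. The summit window held 26 CpGs at CCNY, which encodes cyclin Y, against 10 upstream (chr10:35626168-35626367 and chr10:35624506-35624705, plus strand). At LMO1, a gene for a LIM-domain transcription cofactor, the summit window held 23 (chr11:8284269-8284468, minus strand). AGAP2, which encodes a GTPase-activating protein for ARF proteins, had 19 at the summit and 5 upstream (chr12:58131430-58131629 and chr12:58133420-58133619, minus strand). CCDC126 had 28 at the summit (chr7:23637337-23637536, plus strand). The AGAP2 window lay in coding sequence of exon 1 and the other summit windows in intron 1.
CCNY downstream: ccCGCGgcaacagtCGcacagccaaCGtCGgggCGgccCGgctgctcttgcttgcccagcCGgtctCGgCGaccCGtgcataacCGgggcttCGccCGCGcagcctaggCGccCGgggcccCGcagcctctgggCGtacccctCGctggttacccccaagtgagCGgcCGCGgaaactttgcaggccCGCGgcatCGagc
CCNY upstream: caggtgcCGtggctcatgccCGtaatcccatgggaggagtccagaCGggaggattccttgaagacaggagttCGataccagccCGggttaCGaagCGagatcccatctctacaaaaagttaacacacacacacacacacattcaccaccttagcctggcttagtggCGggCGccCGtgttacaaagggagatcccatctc
LMO1 downstream: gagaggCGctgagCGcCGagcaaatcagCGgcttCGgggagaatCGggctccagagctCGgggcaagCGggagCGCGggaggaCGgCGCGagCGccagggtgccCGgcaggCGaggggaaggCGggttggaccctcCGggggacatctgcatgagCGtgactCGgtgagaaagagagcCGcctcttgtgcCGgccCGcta
AGAP2 downstream: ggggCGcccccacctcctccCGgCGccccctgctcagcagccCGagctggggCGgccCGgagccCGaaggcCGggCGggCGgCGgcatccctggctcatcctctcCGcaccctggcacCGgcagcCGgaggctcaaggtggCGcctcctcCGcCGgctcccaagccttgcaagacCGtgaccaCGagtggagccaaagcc
AGAP2 upstream: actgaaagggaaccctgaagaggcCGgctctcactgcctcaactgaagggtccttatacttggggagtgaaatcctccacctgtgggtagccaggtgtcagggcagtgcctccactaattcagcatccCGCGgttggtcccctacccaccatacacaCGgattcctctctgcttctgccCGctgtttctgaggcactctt
CCDC126 downstream: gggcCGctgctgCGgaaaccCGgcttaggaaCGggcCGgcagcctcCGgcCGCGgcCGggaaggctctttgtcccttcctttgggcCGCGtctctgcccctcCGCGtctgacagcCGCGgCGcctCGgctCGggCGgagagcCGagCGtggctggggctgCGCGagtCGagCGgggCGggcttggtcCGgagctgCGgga

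New peaks on 1 side of a start site lay far more often downstream than upstream. The list held 874 peaks that met the same rule on the upstream side, which gives 2.57 downstream-only peaks per upstream-only peak (2.37 to 2.78). A further 4649 peaks covered an isolated start site. Of the 2194 genes with a downstream-only peak, 2146 had 1 and 48 had 2. The members were spread over both strands, with 1100 of 2242 (49.1%) at genes on the plus strand.

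The rule placed the nearest edge within 1000 bp of the start site, and the positions within that range are given as a description. Their nearest edge lay at a median of 190 bp from the start site and their far edge at 706 bp. The median width was 432 bp (422 to 443), with a range from 253 to 2202 bp. Summits lay at a median of 458.5 bp (444 to 476), with the middle of the distribution between 298 and 721 bp. The position covered by most members was 350 bp downstream, where 1432 of the 2242 peaks (63.9%) were present, and 531 (23.7%) still covered the base 1000 bp downstream. The position of the edges is coarse, since the DNA had been sheared to 200 to 1000 bp and no peak of the list was narrower than 253 bp. The nearest edge lay more than 253 bp from the start site in 900 members (40.1%), and in 476 of the 874 upstream-only peaks (54.5%).

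**Figure D1:**
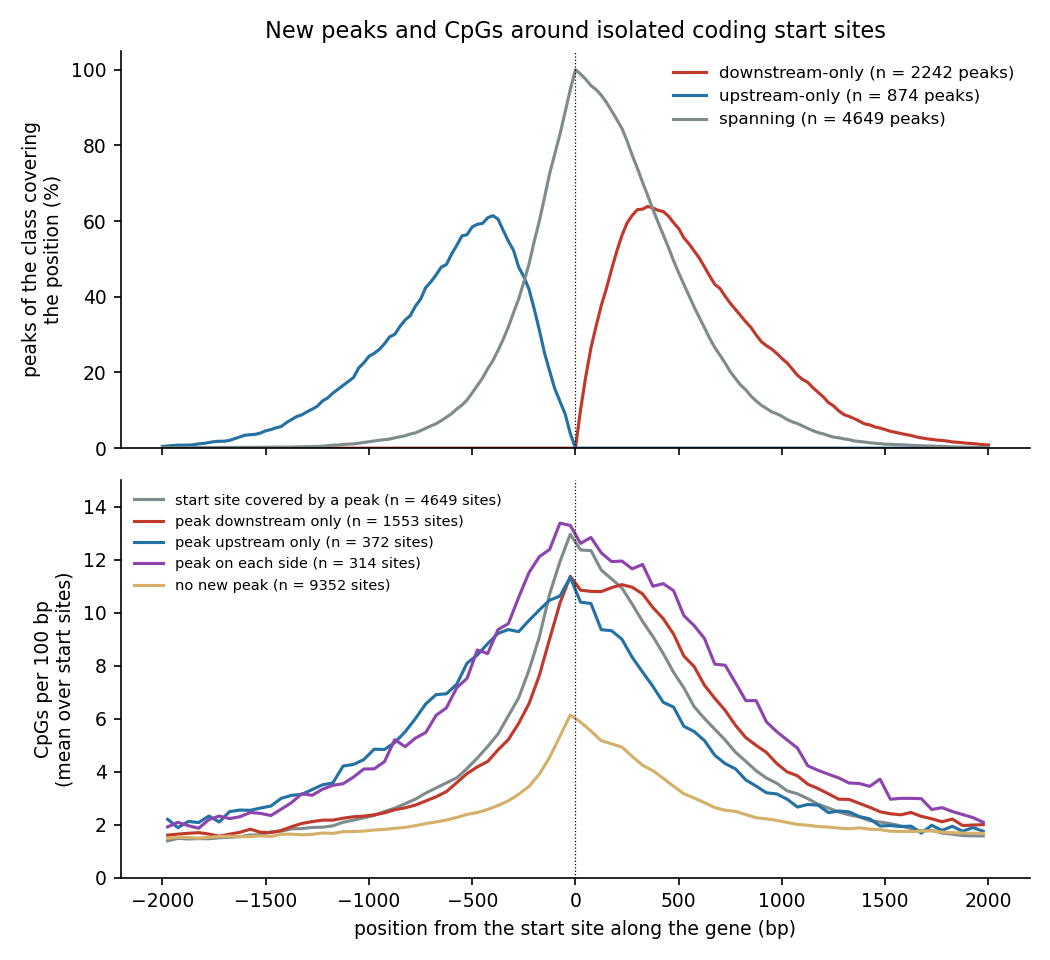
CpG density and peak coverage by distance from the start site in bp, with upstream to the left. At the 1553 start sites with a downstream peak and neither a covering nor an upstream one, the CpG density reached 11.4 per 100 bp just upstream of the start. It stayed at 10.97 in the bin 250 bp downstream, against 6.57 in the bin 250 bp upstream. The coverage of the 2242 peaks was highest at 350 bp.

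The DNA under the peaks was dense in CpG sites and the DNA upstream of the same start sites was much sparser. A downstream-only peak held a median of 45 CpGs, at 10.3 CpGs per 100 bp (10.2 to 10.5). The window of the same length at the same distance upstream held 4.70 per 100 bp, and the median difference between peak and mirror window was 5.44 (5.17 to 5.63). The peak was the denser of the pair in 2060 members (91.9%). For the upstream-only peaks, 580 of 874 (66.4%) were denser than their mirror window downstream. The median GC content of the members was 71.0% and their ratio of observed to expected CpGs was 0.845, where 1 is the number that base composition alone would give.

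Nearly all downstream-only peaks lay in CpG islands, as did nearly all other new peaks near isolated start sites. At least 1 bp of 2192 members (97.8%, 97.1 to 98.3) fell in an island rebuilt from the hg19 sequence by the usual criteria (longer than 200 bp, GC of 50% or more, observed to expected CpGs above 0.6). The sequence was not masked for repeats, so that the set of 48663 islands also takes in repeats that a masked set would leave out. Of the upstream-only peaks 97.0% overlapped an island, and of the peaks over an isolated start site 98.9%. In 1989 members (88.7%) the island also covered the start site, against 88.6% of upstream-only peaks. Another 203 members (9.05%) overlapped an island that ended short of the start site, against 8.47% of upstream-only peaks. In 186 of the 2242 members (8.30%) the peak overlapped an island and the start site lay in none, against 6.52% of upstream-only peaks. The median fold of these 186 was 7.60 (6.99 to 8.26), close to that of all members. The 50 members outside islands had 5.61 CpGs per 100 bp and a median fold of 6.19 (5.11 to 7.45), and 4 of them reached a fold of 10.

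The side of the new peak followed the side with more CpGs, and a downstream excess was also present where both sides held similar numbers. Among isolated start sites with at least 80 CpGs within 1000 bp on both sides together, 1649 had at least 51 more CpGs downstream than upstream. Of these, 408 (24.7%, 22.7 to 26.9) had only a downstream peak and 8 (0.485%) only an upstream peak. At the 535 sites with at least 31 more CpGs upstream, 10 (1.87%) had only a downstream peak and 107 (20.0%) only an upstream one. The 2043 sites whose sides differed by at most 10 CpGs had a downstream peak alone in 202 cases (9.89%, 8.63 to 11.3) and an upstream peak alone in 71 (3.48%, 2.72 to 4.36). The balanced sites thus gave 2.85 downstream sites per upstream site (2.16 to 3.78), in a comparison that was not planned. All 9624 CpG-rich sites gave 4.15 (3.69 to 4.68) by the same definition, and the intervals overlapped. Without the balanced sites whose peak covered any annotated transcript start, the numbers were 113 and 40, a ratio of 2.83. Balance within 500 bp (at least 40 CpGs, a difference of at most 5) gave 206 and 59, a ratio of 3.49. Here a peak counts as downstream alone when the start site was covered by no new peak and had none upstream.

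**Figure D2:**
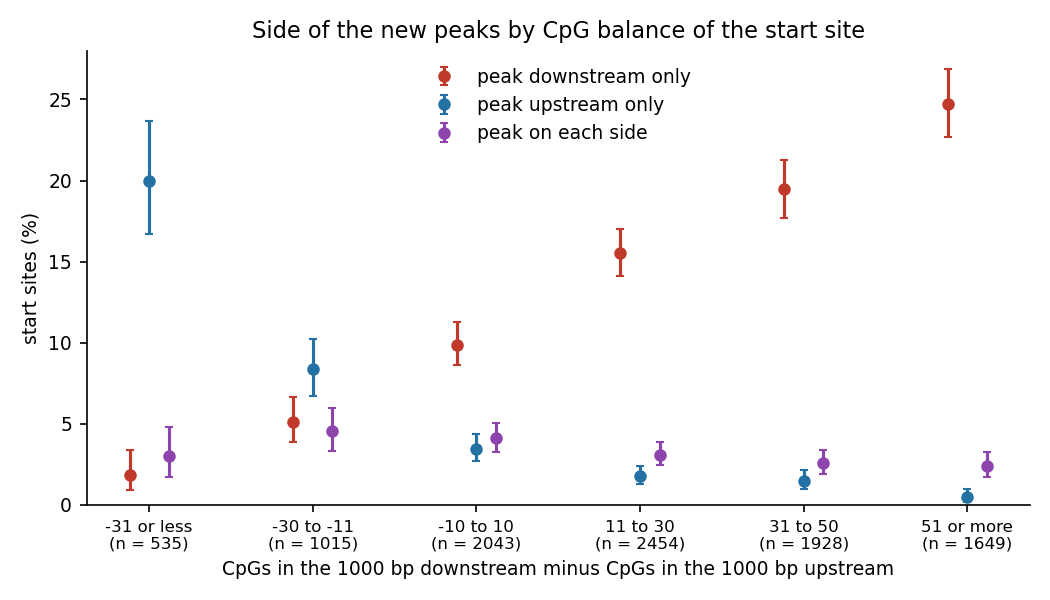
Percent of start sites (y axis) with a new peak on 1 side only or on each side, with 95% exact binomial intervals. The 6 classes give the CpG number within 1000 bp downstream minus that upstream. Shown are the 9624 isolated start sites with at least 80 CpGs within 1000 bp on both sides together. The downstream share went from 1.87% to 24.7% across the classes and the upstream share from 20.0% to 0.485%, and at balanced sites they were 9.89% and 3.48%.

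The start sites themselves were not poor in CpGs. Of the 2242 members, 329 (14.7%, 13.2 to 16.2) lay beside another new peak that covered the start site, and 1913 had an uncovered start. At these 1913 the median density was 11 CpGs per 100 bp in the 200 bp centred on the start site and 10.4 in the peak. The start site was the denser of the pair in 1042 (54.5%, 52.2 to 56.7). At the 593 uncovered starts with an edge more than 253 bp away, the stretch between start site and peak held 10.4 CpGs per 100 bp against 10.3 in the peak, and was the denser in 319 (53.8%, 49.7 to 57.9), an interval that includes equal shares. A fragment count over these uncovered stretches was not analysed here, and a stretch that was already methylated in untreated cells would not be listed as new. For the 329 members beside a covering peak, the gap between both peaks was 260 bp in the median and under 500 bp in 297.

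The genes with a downstream peak alone had more CpGs downstream than upstream of the start. Counting each isolated start site once, 1553 of 16240 (9.56%) had a downstream peak and neither a covering nor an upstream one. Of these, 1403 (90.3%) had more CpGs downstream, against 68.8% of all isolated start sites. The median CpG number of the 1553 within 1000 bp was 80 downstream and 47 upstream. The 4649 sites covered by a peak had 75 and 52, the 372 with an upstream peak alone had 59 and 77, the 314 with peaks on both sides only had 95 and 80.5, and the 9352 with no new peak had 29 and 22. Genes with a downstream peak alone had in the median 32 CpGs more downstream than upstream, against 9 over all isolated start sites. The share with more CpGs downstream was 77.2% at covered sites, 66.6% at sites with peaks on both sides and 62.7% at sites with no new peak. It was 30.4% at sites with an upstream peak alone.

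The peaks were richer in G than in C on the coding strand, as were the first bases of other CpG-rich genes. The coding strand of the peak held more G than C in 1491 members (66.5%) and in 400 of the upstream-only peaks (45.8%). In the fixed window from 200 to 700 bp downstream of CpG-rich starts, G exceeded C at 62.3% of the sites with a downstream peak alone and at 61.4% of those with no new peak.

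The summits lay mostly in the first intron. By the canonical transcript, 1464 members (65.3%, 63.3 to 67.3) had the summit in an intron, and for 1391 (62.0%) it was intron 1. A summit in a coding exon was found for 512 (22.8%), in an untranslated exon at the 5′ end for 261 (11.6%), and in one at the 3′ end for 5. Exon 1 had a median length of 256 bp, the summit lay a median of 154 bp past its end, and 1167 peaks (52.1%) covered that end. This is close to what the distance alone gives. For the 2024 summits within 1000 bp, the intron share was 64.0%, and the same genes read at the distances of all these summits gave 64.5%. For coding exons the shares were 23.2% at the summits and 17.6% at the same distances, and for untranslated exons 12.8% and 17.7%.

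Part of the members lay over another start of the same gene. At 677 (30.2%, 28.3 to 32.1) the peak covered the start of another coding transcript, in 661 of them of the same gene. The share was 185 of 874 (21.2%) for upstream-only peaks and 67.4% for peaks over an isolated start site, whose own start was not counted. Any other annotated transcript, coding or not, started within 1016 members (45.3%), and one on the opposite strand within 167 (7.45%). These shares were 37.4% and 16.7% for upstream-only peaks, and 82.8% and 19.0% for peaks over an isolated start site. At 1020 members (45.5%) the peak held no annotated start of any kind and the canonical start was uncovered. Which start HEK293 cells use was not measured in these libraries. Members over another coding start had a median fold of 7.45 (7.26 to 7.74) and a width of 496 bp, and those over none 6.95 (6.83 to 7.16) and 411 bp.

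The downstream-only peaks were lower and narrower than peaks over start sites, but the rule itself sorts peaks partly by width. A wide peak close to a start site is more likely to cover it and be counted with the peaks over start sites. The downstream-only median fold was 7.12 (6.99 to 7.44), with quartiles of 5.59 and 9.31 and a range from 1.85 to 22.5. The spanning peaks had 9.05 (8.84 to 9.31) and a width of 718 bp, and the upstream-only peaks 6.83 (6.70 to 7.05) and 396 bp. A fold of at least 10 was reached by 405 members (18.1%, 16.5 to 19.7), below the 25.2% of the whole list and the 39.5% of spanning peaks. Within 1 range of widths the difference in fold was small, although width itself moved with fold (Spearman correlation 0.440 for downstream-only and 0.486 for spanning peaks), so that this range leaves out the wider and higher spanning peaks. Between 320 and 622 bp, the middle range of the members, the median was 7.45 (7.12 to 7.45) for 1123 downstream-only, 7.49 (7.45 to 7.70) for 1526 spanning and 7.26 (6.83 to 7.45) for 431 upstream-only peaks. The share with a fold of at least 10 was then 15.4% for downstream-only and 20.6% for spanning peaks.

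**Figure D3:**
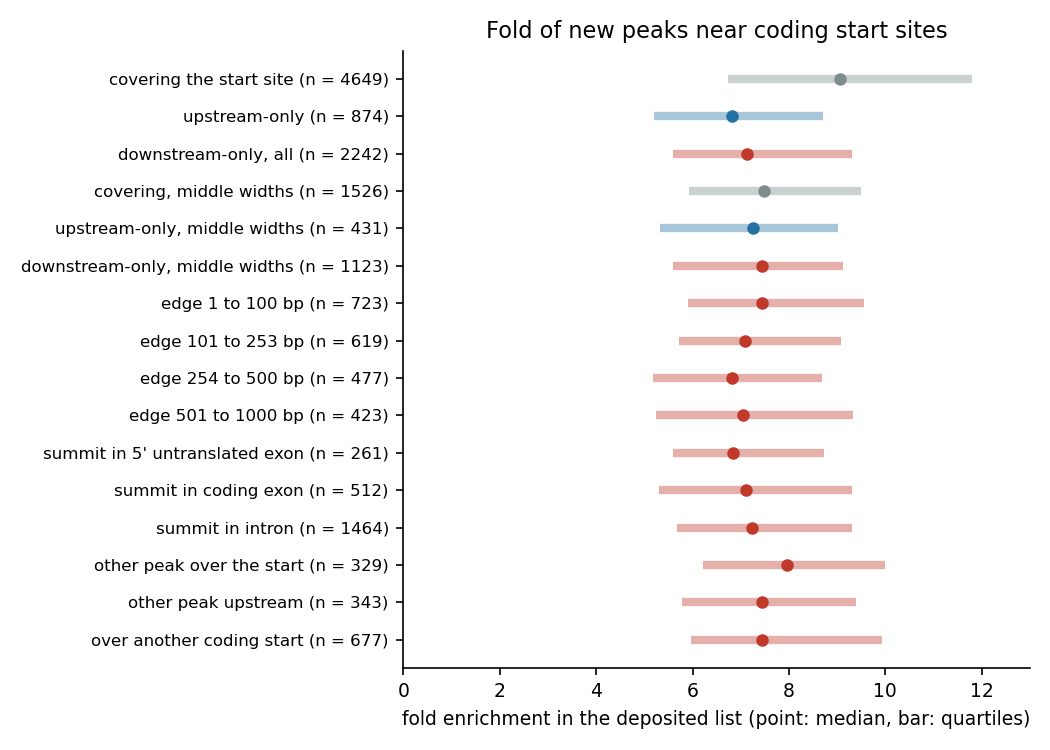
Fold of new peaks by class and by groups of the downstream-only peaks, among them the distance of the nearest edge from the start site. The x axis is the deposited fold. The downstream-only median of 7.12 lay below the 9.05 of spanning peaks, and the 4 distance classes had medians between 6.83 and 7.45.

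The height varied little with the distance from the start site, with the lowest median in the class from 254 to 500 bp. The 723 members with an edge 1 to 100 bp away had a median fold of 7.45 (7.25 to 7.67). The 619 from 101 to 253 bp had 7.08, the 477 from 254 to 500 bp 6.83 (6.39 to 7.08) and the 423 from 501 to 1000 bp 7.05 (6.82 to 7.45). The share in islands was 99.03% in the nearest class and 94.1% in the farthest. Over the 2242 members the fold had a Spearman correlation of 0.440 with the width, 0.359 with the number of CpGs, -0.0421 with CpGs per 100 bp and -0.0786 with the distance of the nearest edge. Its correlation with the background rate, which is part of the fold, was -0.612. All these points come from 1 library.

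The depth behind each fold was small. Members had a median of 16 fragments at their summits, as worked out from the deposited fold and p-value, with quartiles of 12 and 20 and a range from 6 to 68. The background rate had a median of 0.852 fragments, and 741 members (33.1%) stood on the lowest rate of the list, 0.611, which entered both the fold and the call. Single folds therefore carry a counting error of several fragments, and small differences between genes were not resolved.

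All 10 highest members had their summits in exon 1 or intron 1 of the canonical transcript. So did most members, with 29.4% in exon 1 and 62.0% in intron 1. All 10 except C17orf58 covered the start of another annotated transcript, against 45.3% of all members. At CREM, DNAJC21, AGAP2, CCDC126, WNK1 and PRLR this included the start of another coding transcript, against 30.2% of all members. CREM, which encodes a cAMP-responsive transcription factor, had the highest fold of 22.5 with 40 fragments. Its peak (chr10:35415839-35416794) began 65 bp downstream of the start, had its summit in the untranslated part of exon 1, and held 11.1 CpGs per 100 bp against 3.77 in the mirror window. CCNY followed with a fold of 19.9 and 31 fragments (chr10:35625885-35626588), 448 bp from a start site that another new peak covered. DNAJC21, a cochaperone gene linked to ribosome assembly, had 19.2 and 30 fragments (chr5:34929999-34930494), also beside a covering peak.

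LMO1 reached 18.6 with 34 fragments (chr11:8284058-8285079), with an edge at 346 bp and a start site in no island. The peaks of AGAP2 (chr12:58130862-58132504), CCDC126 (chr7:23637046-23637692) and WNK1 (chr12:861765-863413) shared a fold of 18.0 and 28 fragments. WNK1 encodes a kinase that controls ion cotransporters. Their edges lay 21, 45 and 20 bp from the start, and the AGAP2 and WNK1 peaks ran on for 1643 and 1649 bp. PRLR, the prolactin receptor gene, and C17orf58 both had 17.4 (chr5:35229729-35230529 and chr17:65991609-65992367). Neither of these peaks touched a rebuilt island. RGS7BP, whose product anchors a regulator of G protein signalling at the membrane, had 17.04 (chr5:63801998-63802543).

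**Figure D4:**
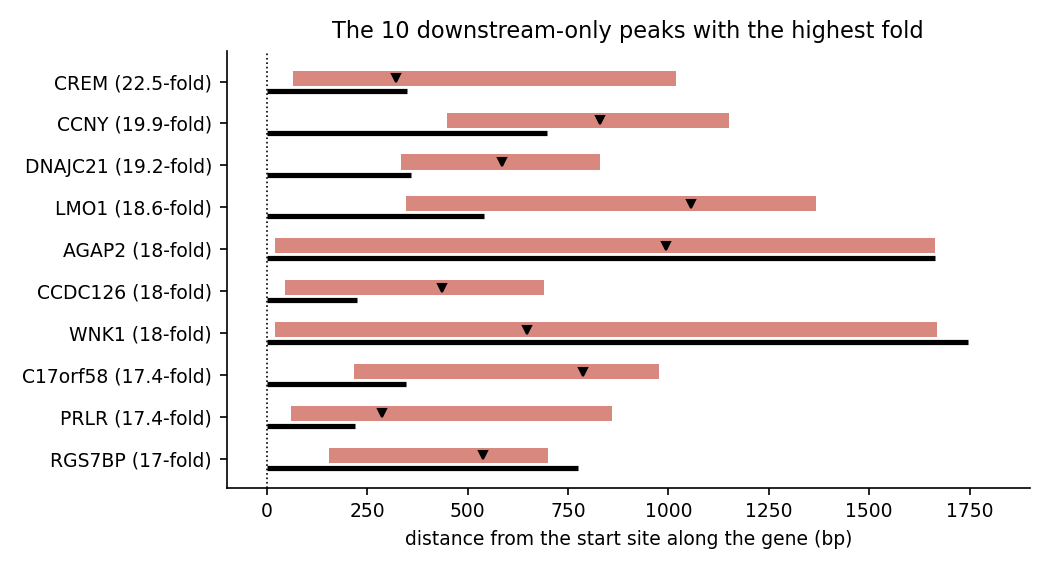
The 10 downstream-only peaks with the highest fold, drawn to scale by distance from the start site in bp, with the summit marked. CCNY, DNAJC21 and LMO1 begin more than 300 bp downstream, and AGAP2, WNK1, CCDC126, PRLR and CREM within 100 bp of the start.

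The lowest members stood on high backgrounds. NPW, the gene of neuropeptide W, had a fold of 1.85 from 51 fragments over a rate of 27.1. SOCS1, an inhibitor of cytokine signalling, had 1.88 from 44 fragments over 22.9, and MAP3K11, a kinase gene, 1.99 from 41 over 20.1. All 3 held at least as many fragments as the member with the highest fold. CREM had 40 fragments over a rate of 0.825.

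The widest members lay in genes whose start site had a new peak of its own. The VGF peak was 2202 bp wide and held 237 CpGs, at a fold of 11.97. MYC, the growth-promoting transcription factor gene, had a peak of 2200 bp and a fold of 13.7, and CASZ1, a zinc finger transcription factor gene, 2137 bp and 14.9. At all 3 another new peak covered the start site. ARID1B, a chromatin remodelling gene, held 241 CpGs at a fold of 8.69, and NOL4L 240 at 11.3. At the limits of the rule, TSC22D2, DZIP1L and IFFO2 had edges 1 bp from the start site and folds of 10.6, 10.6 and 10.4. The farthest edges were 998 bp at ZNF777, with 2.89, 996 bp at BAHD1, with 11.2, and 994 bp at PRR16, with 8.69. Just outside lay TMC4 at 1002 bp, with 4.24, and NOTUM at 1005 bp, with 4.01.

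A sizeable group of start sites had new peaks on both sides and none over the start. A downstream-only peak stood together with an upstream-only peak at 332 start sites, and at 314 of them the start was uncovered. The fold was higher downstream at 168 of the 314 (53.5%, 47.8 to 59.1), with medians of 7.12 downstream and 6.91 upstream. The uncovered gap was 437.5 bp in the median, with quartiles of 285 and 674 bp, and exceeded 253 bp at 251 sites. It held 12.6 CpGs per 100 bp in the median, against 10.98 in the downstream and 10.05 in the upstream peak. The gap was denser than both peaks at 169 sites and sparser than both at 84, and 306 of the 314 starts lay in an island.

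The 5 pairs whose smaller fold was highest are named here. FOXK2, a forkhead transcription factor gene, had a fold of 16.0 downstream and 16.8 upstream around a gap of 288 bp with 20.5 CpGs per 100 bp. RILPL1 had 14.7 and 13.6 around 228 bp with 19.3. IRF2, an interferon regulatory factor gene, had 14.3 and 13.04 around 955 bp with 6.39. At IRF2BP2, whose product binds IRF2, and at COL27A1, a collagen gene, another new peak covered the start between both peaks. IRF2BP2 had 13.7 downstream and 15.5 upstream, 1029 bp apart, and COL27A1 13.2 and 15.5, 1260 bp apart.

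The share of isolated starts with a downstream-only peak ranged from 4.69% to 31.5% over 12 gene families, against 13.5% over all 16240. The intervals count genes as if independent and are a description. Families were grouped by gene symbol. The developmental transcription factors were taken by symbols such as HOX, PAX, SOX, FOX and POU, whatever the function of the single gene. WNT and axon guidance genes, which encode secreted and membrane signals and their receptors, had 28 of 89 (31.5%, 22.03 to 42.2), with summits at a median of 716.5 bp. Their highest folds were 12.3 at WNT4, 11.8 at SEMA6D and 11.3 at PLXNB1. RNA helicases and splicing factors had 18 of 65 (27.7%, 17.3 to 40.2), led by HNRNPA0 with 14.9, SRSF8 with 14.3 and DDX21 with 9.93. Developmental transcription factors had 43 of 184 (23.4%, 17.5 to 30.2) and at a median of 737.5 bp, led by FOXK2, POU2F1 with 14.9 and HOXC4 with 14.3. Their median fold was low at 5.54. A covered start was found at 19.0% of these factors and at 39.3% of the WNT and axon guidance genes, against 28.6% of all. Upstream-only peaks were found at 15.7% of the WNT and axon guidance genes, 11.96% of the developmental factors and 6.15% of the RNA helicases and splicing factors, against 5.33% of all, so that the first 2 families had high shares on both sides of the start.

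Other families had lower shares, of which only that of the cytosolic ribosomal protein genes had an interval below 13.5%. Cytosolic ribosomal protein genes, whose products build the ribosome, had 3 of 64 (4.69%, 0.977 to 13.1), namely RPL8 with a fold of 8.14, RPL13 with 5.66 and RPL10A with 5.59. Their shares were also low for covered starts (6.25%, against 28.6% of all) and for upstream-only peaks (3.125%, against 5.33% of all). The low share was thus not particular to downstream-only peaks. Mitochondrial ribosomal protein genes had 6 of 49 (12.2%, 4.63 to 24.8), with 14.2 at MRPS30, 10.6 at MRPL48 and 8.22 at MRPL19. C2H2 zinc finger genes had 59 of 470 (12.6%, 9.70 to 15.9), led by ZNF25 with 14.2, ZNF782 with 13.04 and ZNF33A with 12.4. Solute carriers, the membrane transporters, had 35 of 311 (11.3%, 7.97 to 15.3), led by SLC25A37 with 14.2 and by SLC1A5 and SLC41A2 with 13.7 each. Matrix and adhesion genes had 19 of 164 (11.6%, 7.12 to 17.5), led by COL27A1 with 13.2, ADAMTS7 with 12.03 and COL19A1 with 11.2.

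The remaining families had intervals that include the share of all genes. RAB GTPases, which direct vesicle traffic, had 11 of 51 (21.6%, 11.3 to 35.3), with 15.4 at RAB34, 13.7 at RAB2A and 10.6 at RAB14. Histone genes had 8 of 45 (17.8%, 8.002 to 32.1) close to the start, with a median summit at 213.5 bp, led by H3C13 with 10.7, H2AC4 with 10.6 and H3C2 with 9.93. Copies of histone genes are so alike that reads between them are uncertain. Ion channels had 20 of 132 (15.2%, 9.51 to 22.4), led by CACNG2 with 12.3, CACNA2D3 with 9.09 and CACNG4 with 8.56. Ubiquitin pathway genes had 14 of 99 (14.1%, 7.95 to 22.6), led by USP7 with 14.8, UBE2L3 with 9.12 and USP12 with 8.69.

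The CpGs downstream of the starts followed the family shares only in part. The median number within 1000 bp downstream was 84 for WNT and axon guidance genes and 81 for developmental transcription factors, against 51 over all isolated starts. Ion channels had 64.5 and RNA helicases and splicing factors 59, although the share of the latter was higher. Cytosolic ribosomal protein genes had 49, as did C2H2 zinc finger genes, with 49.5 for matrix and adhesion genes and 46 for mitochondrial ribosomal protein genes. The part of CpG number in the family shares was not tested.

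**Figure D5:**
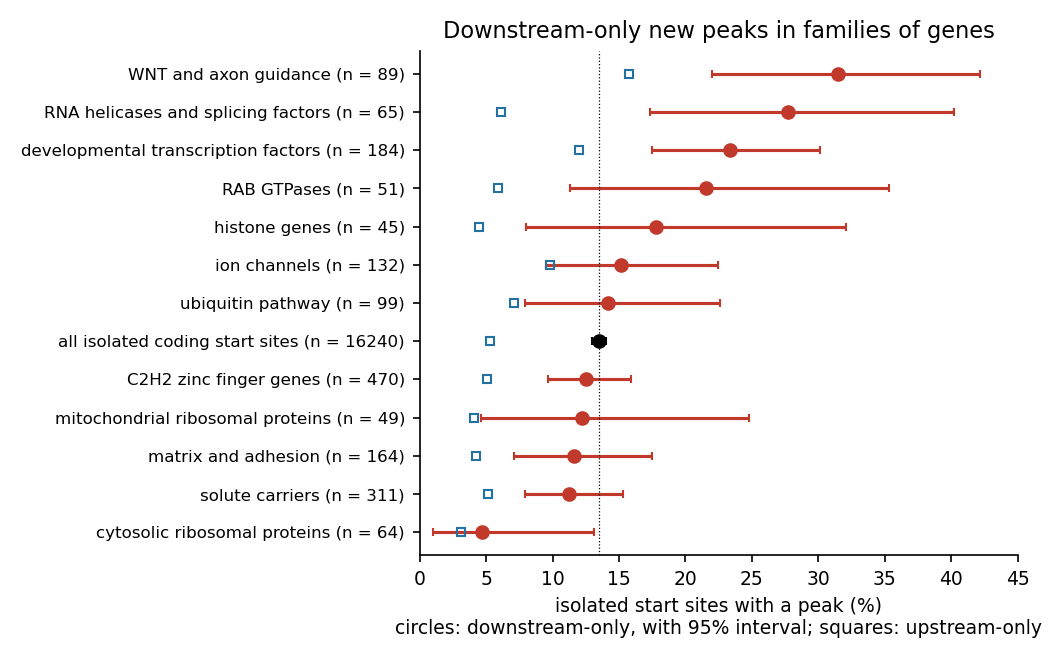
Percent of isolated start sites with a downstream-only peak for 12 gene families, with 95% exact binomial intervals; the line marks the 13.5% of all isolated start sites. WNT and axon guidance genes had 31.5% and cytosolic ribosomal protein genes 4.69%.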

How the data were processed

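MBD-seq of HEK293 cells comprised 4 conditions with 1 library each, and 1 deposited list, the new peaks of the WT cells, was analysed. Its grouping follows the sample labels. The labels' processing notes name FastQC, Bowtie2, deepTools and MACS2 and the build hg19. The settings of peak calling are not given in the sources used here. Per the file layout of MACS2, the deposited score was not used. The authors' fold is a ratio of fragments to background at the summit, and the deposited −log10 p-value and −log10 q-value come from the peak caller, with a smallest −log10 q of 2.00. The remaining deposited column is the summit's distance from the peak start. These values were used only within the list.

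The fragments k and the background rate of each peak were solved from 2 deposited values, with the p-value read as a Poisson tail and the fold as (k + 1)/(rate + 1). The largest miss of the −log10 p was 0.000403, against a median of 0.261 for the second best whole number. Total library depth was not analysed here. Start sites were the canonical ones of GENCODE release 44 lifted to GRCh37. CpG islands were rebuilt by scoring each CpG 17 and each other base -1 on unmasked sequence, which gave 48663. An overlap of 1 bp counted. Scripts used matplotlib 3.10.9, numba 0.67.0, scipy 1.17.1, pandas 2.3.3, numpy 2.4.6 and Python 3.11.15, and were tested on simulated data.

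With 1 library per condition no test across conditions was possible. Members and gene lists were chosen with earlier results of these data known. Genes are named by rule: the 10 highest and 3 lowest folds, the 3 nearest, 3 farthest, 3 richest in CpGs and 3 widest, the 5 genes with peaks on both sides whose smaller fold was highest, up to 3 per family by fold, and the 2 peaks just beyond 1000 bp. The RAB family was narrowed to GTPases after values had been seen. The upstream windows of 2 of the 4 genes whose sequence is shown are not reported here. Alternatives covered thresholds, distances, isolation, start sites, summit position, islands and width.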

Additional observations from a re-analysis of the deposited data

How the results depend on the processing

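Of 64 alternative values, 24 stayed within the interval or margin of the reported one and 40 moved, and none changed the side on which peaks were in excess. With only peaks of at least the list's median fold, there were 1072 downstream-only peaks, 2.87 per upstream-only peak, with a median fold of 9.31, a median summit distance of 488 bp, upstream peaks at 9.89% of the start sites (15.1% in the whole list), another coding start in 33.4% and a CpG difference of 5.83 per 100 bp. With a −log10 q of at least 10 these were 1002 peaks, a fold of 9.45, 517 bp, 98.5% in islands, 9.37% with an upstream peak, 34.2% with another coding start and a fold difference from spanning peaks of -1.18 in place of -1.93. An edge within 500 bp gave 398 bp, 98.6% in islands, 13.1% and 32.2%, and one within 2000 bp gave 508 bp and 96.7%. Without isolation the ratio was 2.80 and the share with an upstream peak 13.4%. With the starts of all coding transcripts there were 1767 peaks, a ratio of 2.08, a fold of 6.93, 424 bp, 95.6% in islands, 62.1% in introns and 6.73% with an upstream peak. By the summit alone there were 5317 peaks, a fold of 8.26, 274 bp, 98.7% in islands, 47.6% in introns, 10.4% with an upstream peak and 53.7% with another coding start. Stricter islands held 92.1%, and 96.6% had at least 50% of the peak in an island. The CpG difference as an observed/expected ratio was 0.217. The fold difference from spanning peaks was -0.0351 at middle widths, a range that depends on fold, and -2 as fragments. The cause of these changes was not tested. The comparison of balanced sites, with its ratio of 2.85, was not planned. Its 2 alternatives were chosen after seeing the data and gave ratios of 2.83 and, within 500 bp, 3.49. No paired analysis was possible because each condition has 1 library. Depth limits single peaks, with a median of 16 fragments.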

Other observations

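The share of isolated start sites with a downstream-only peak differed between chromosomes. It was lowest on chromosome 19, with 113 of 1227 (9.21%, 95% exact binomial interval 7.65 to 10.97), and 10.1% on chromosome 20. It was highest on chromosome 18, with 50 of 238 (21.0%, 16.0 to 26.7), against 13.5% over all chromosomes used. At the 48 genes with 2 downstream-only peaks, the 96 peaks had a median fold of 6.83 (6.19 to 7.997).

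Where a downstream-only peak stood beside another new peak over the start site, both peaks had similar folds. The covering peak had the higher fold at 174 of 329, and the medians were 8.28 for the covering and 7.97 for the downstream-only peak.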
